A study of Mus musculus with 6 samples.

Results

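Naive and central T cells are kept quiescent, and kept moving between blood and lymph nodes, by a small set of genes. The 9 examined here, picked by name from the count table, were *Tcf7*, *Lef1*, *Bach2*, *Satb1*, *Klf2*, *S1pr1*, *Ccr7*, *Il7r* and *Id3*. Each matched 1 row of the 13709 in the table, and all 9 passed the filter on low counts. They were measured by bulk RNA-Seq in CD4+YFP+CD25+ Tregs, the Foxp3-expressing CD4+ T cells that hold immune responses in check, from 3 WT and 3 KO samples on the C57BL/6 background. In the study both groups carried Foxp3Cre, which places Cre recombinase and YFP under the Foxp3 locus, and KO mice also carried 2 floxed copies of *Zfp335*, a zinc finger gene, with Cre produced in cells that turn on Foxp3. The mice were 2 weeks old per the study's methods. The labels named lymph nodes in some fields and spleen in others, and gave neither sex nor the number of mice per sample, so p-values measure only the spread between these samples.

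*Tcf7* (TCF-1) and *Lef1* encode HMG-box transcription factors that hold T cells in a naive or memory-like state. *Bach2* is a repressor of effector programs, *Satb1* organizes chromatin, and *Id3* blocks DNA binding by E proteins. *Klf2* drives transcription of *S1pr1*, the receptor for sphingosine-1-phosphate by which T cells leave lymph nodes, while CCR7 guides them in and the IL-7 receptor alpha chain (*Il7r*) provides survival signals. Resting Tregs express most of these genes, and activation through the T cell receptor is known to lower many of them.

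Total counts ranged from 32032631 to 40728419 per sample, and values are given as CPM, the counts of a gene relative to its library total after TMM scaling. The targeted gene *Zfp335* was at 101.3, 94.3 and 103 CPM in WT replicates 1 to 3 and at 37.0, 37.9 and 40.2 CPM in KO replicates 1 to 3, or 38.6% of the WT mean (edgeR, log2 fold change -1.37 with an SE of 0.07, adjusted p 2.14e-05). WT replicate 3 stood apart from the other WT samples on the second principal component, at -41.5 against 19.3 and 22.7, and the 3 KO samples lay between -0.46 and 0.015. In WT replicate 3, 606 genes (4.46% of those tested) were over 2 times their level in both other WT samples. Calls and list counts that change without this sample are given both ways. All 6 Treg markers examined (*Cd3e*, *Cd4*, *Foxp3*, *Il2ra*, *Ctla4* and *Ikzf2*) were high in each sample, the lowest being *Ikzf2* at 317.5 CPM in a KO sample. Of these, *Ikzf2* (log2 fold change -1.11) and *Foxp3* (-0.88) fell, and *Foxp3* was not called without WT replicate 3. Summed B cell markers were at 16.0 to 18.1 CPM in WT and 10.8 to 10.95 CPM in KO, with 1 of 4 (*Cd79b*) lower. Summed CD8 T cell markers were at 9.32 to 13.2 CPM in WT and 12.02 to 12.7 CPM in KO, with 1 of 2 (*Cd8a*) higher. Of 3 myeloid markers tested, 3 rose, with sums of 8.41 to 19.4 CPM in WT and 37.6 to 42.4 CPM in KO, and 2 of 3 without WT replicate 3, where *Lyz2* (log2 fold change 0.55) was not called. Of 3 NK cell markers, 2 rose (*Eomes* and *Klrb1c*), with sums of 3.59 to 5.83 CPM in WT and 14.9 to 16.2 CPM in KO. Most of the KO sum came from *Eomes*, at 11.1 to 11.6 CPM, and *Ncr1* was not called (edgeR, log2 fold change 1.28, adjusted p 0.13). Markers of immature thymocytes were not analysed here. No marker in the table was at 0 in any sample, and the part of other cells in the results below was not tested. Summed red cell markers lay between 22.9 and 98.9 CPM in WT and between 42.3 and 47.8 CPM in KO, and none of the 4 was called. Without WT replicate 3, which had the lowest sum, 3 of the 4 were called lower, with a median log2 fold change of -0.97. The endothelial and stromal sum, 192 to 206 CPM in WT and 137 to 145 CPM in KO, came almost wholly from *Pecam1*, which resting T cells also express.

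The 9 genes did not move as a group. Calls required a fold change over 1.5 together with p below 0.05 and an adjusted p below 0.1, and 24.4% of all genes tested were called in either direction. By this rule *Id3* and *Tcf7* fell and *Satb1* rose in KO, and the other 6 genes were not called. Among all genes, 12.5% were called lower and 11.9% higher. The median log2 fold change of the 9 genes was -0.37, against -0.04 for all genes. Of the 9, 7 had negative and 2 had positive values, and 47.1% of all genes tested had positive values. Without WT replicate 3, 4 of the 9 were called, *Il7r* being added as higher, where 26.8% of all genes were called, and the median of the 9 was -0.18. WT and KO values did not overlap for 7 of the 9, whereas this held for 53.8% of all genes tested. In a bulk sample, fewer cells that express a gene and less RNA per cell cannot be told apart.

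**Figure D1:**
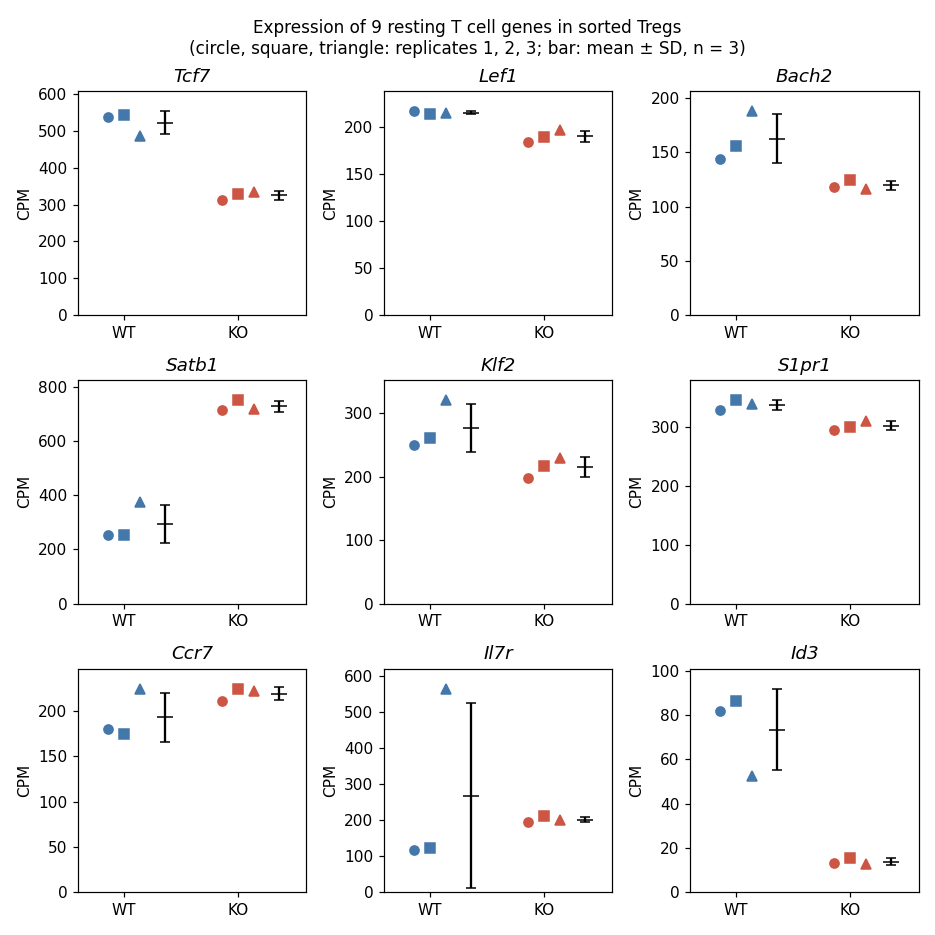
Expression of each of the 9 genes in CPM (vertical axes start at 0), with circles, squares and triangles for replicates 1, 2 and 3 of WT (blue) and KO (red) and a black bar for the mean ± SD of 3 samples. *Satb1* lies higher and *Id3* and *Tcf7* lie lower in every KO sample, and WT replicate 3 is far above the rest for *Il7r*, at 563 CPM.

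The largest difference was in *Id3* (chromosome 4, 136143497 to 136145755, mm10). It was at 81.6, 86.2 and 52.3 CPM in WT and at 13.4, 15.5 and 12.8 CPM in KO, for replicates 1 to 3. The lowest WT sample, replicate 3, was still far above the highest KO sample. *Id3* fell from 73.4 ± 18.4 to 13.9 ± 1.43 CPM (SD, n = 3), which left 18.9% of the WT level (edgeR, log2 fold change -2.40 with an SE of 0.19, 95% interval -2.85 to -1.95, adjusted p 0.000125). Without WT replicate 3 the log2 fold change was -2.60. The study listed *Id3* and *Tcf7* as Treg signature genes from these same samples, so their directions are not independent evidence.

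The relative of *Id3*, *Id2*, which marks effector lymphocytes and blocks the same E proteins, moved the other way. *Id2* was at 28.0, 30.8 and 54.6 CPM in WT and at 207, 222 and 215 CPM in KO (edgeR, log2 fold change 2.51 with an SE of 0.24, adjusted p 0.000252). Per kilobase of transcript, *Id2* was at 0.223, 0.232 and 0.677 times the level of *Id3* in WT replicates 1 to 3. In KO replicates 1 to 3 it was at 10.02, 9.31 and 10.9 times that level. All WT samples therefore held more *Id3* than *Id2* and all KO samples more *Id2* than *Id3* by this measure (two-sided exact permutation p 0.1, the smallest that 3 against 3 samples allow, adjusted to 0.25 over 5 ratios). In WT replicate 3 this order depends on the transcript lengths used, since in CPM *Id2* was at 54.6 and *Id3* at 52.3 there. The E protein genes *Tcf3* and *Tcf12*, whose products the Id proteins bind, had log2 fold changes of -0.01 and 0.18 and were not called. Of 5 Id and E protein genes tested besides *Id3*, *Id2* was the one called, and the median log2 fold change was 0.18.

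*Satb1* (chromosome 17, 51736187 to 51833290) was the one member that rose. It was at 252.5, 252 and 375 CPM in WT and at 715, 751 and 719 CPM in KO. KO samples formed a tight group far above WT, and WT replicate 3 was the highest WT sample. The mean went from 293 ± 70.7 to 728 ± 19.7 CPM (SD, n = 3), which is 248% of the WT level (edgeR, log2 fold change 1.31 with an SE of 0.15, 95% interval 0.95 to 1.67, adjusted p 0.000598), and the log2 fold change was 1.52 without WT replicate 3. Of 3 partners of the SATB1 protein tested, the chromatin remodelers *Chd4* and *Smarca5* and the deacetylase *Hdac1*, none was called, with log2 fold changes of 0.15, 0.46 and -0.25. *Satb1* shares 156 and 128 exonic bases with the annotated genes Gm36931 and Gm6934, so a small part of its counts may belong to them.

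*Tcf7* (chromosome 11, 52252371 to 52283014) was at 538, 543 and 487 CPM in WT and at 311, 329 and 334 CPM in KO. All KO samples lay under all WT samples, with little spread in either group. *Tcf7* fell from 523 ± 30.7 to 325 ± 12.03 CPM (SD, n = 3), or 62.2% of the WT level (edgeR, log2 fold change -0.69 with an SE of 0.07, 95% interval -0.85 to -0.52, adjusted p 0.000374). Its fold change was close to the cutoff, and when the fold change itself was tested against 1.5 with glmTreat, *Tcf7* was not called (adjusted p 0.199). In RefSeq, *Tcf7* shares 332 bases with the neighboring *Skp1*, a ubiquitin ligase subunit gene that was also lower in KO (log2 fold change -0.52, not called), so part of its counts is uncertain.

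*Lef1* (chromosome 3, 131110471 to 131224356), the closest relative of *Tcf7* in T cells, differed far less. It was at 217, 214 and 215.0 CPM in WT and at 185, 189.9 and 197 CPM in KO. The groups did not overlap, but KO retained 88.5% of the WT level and the gene was not called (edgeR, log2 fold change -0.18 with an SE of 0.06, 95% interval -0.32 to -0.04, adjusted p 0.0518). The interval for *Lef1* does not reach that for *Tcf7*. Per kilobase, *Tcf7* was at 3.50, 3.58 and 3.19 times the level of *Lef1* in WT and at 2.38, 2.44 and 2.39 times in KO (two-sided exact permutation p 0.1, adjusted p 0.25). *Lef1* shares 1208 exonic bases with the antisense gene Gm43352, and whether strand was used in counting was not stated, so the reads of both cannot be told apart.

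Partners of TCF-1 and LEF-1 were mostly not called. Of 14 tested, *Tcf7l1* rose and *Tle1* fell, and the median log2 fold change was -0.11. *Tle1*, a Groucho corepressor gene, was low throughout, at 3.26 to 9.04 CPM in WT and 1.204 to 2.46 CPM in KO (edgeR, log2 fold change -1.48 with an SE of 0.45, adjusted p 0.033). *Tcf7l1*, another TCF family gene, went from 9.11 ± 1.065 to 14.4 ± 1.118 CPM (log2 fold change 0.66, adjusted p 0.00772). *Tcf7l2* was at 1.41, 1.46 and 4.06 CPM in WT and 1.24 to 1.67 CPM in KO and was not called (log2 fold change -0.73, adjusted p 0.266).

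**Figure D2:**
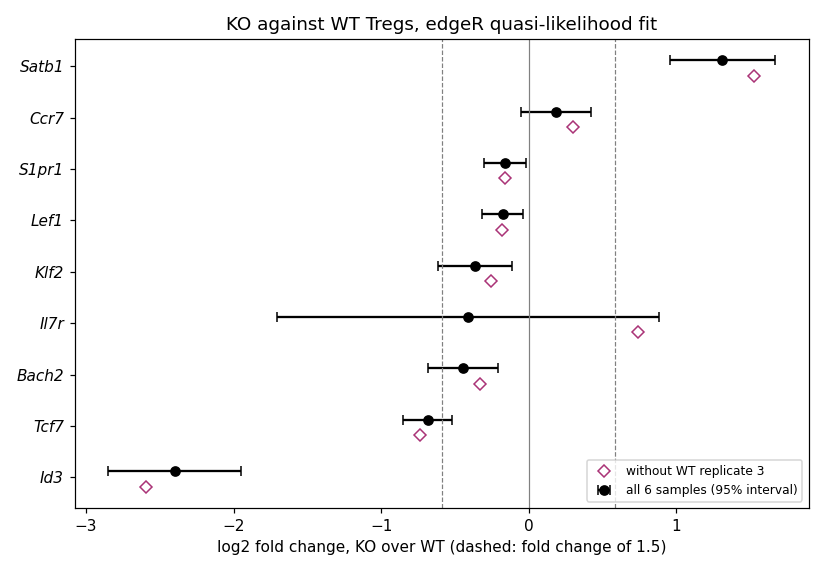
Log2 fold change of KO over WT (horizontal axis) for each of the 9 genes (vertical axis), with black points and 95% intervals from all 6 samples and open diamonds for the fit without WT replicate 3. Dashed lines mark a fold change of 1.5, and the value of *Il7r* moves from -0.41 to 0.74, past the upper line.

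The bases just before the annotated starts of *Tcf7* and *Satb1* are shown because these members moved in opposite directions. RefSeq start windows (GRCm38.p6, 250 bases before and 50 after each start) were given for 7 of the 9 genes, 15 windows in all. They were searched on both strands for the letters AACAAAG (TCF/LEF), GTAAACA (FOXO), TGANTCA (AP-1 and Bach), CCACACCC (KLF) and CAGCTG (E-box). The 250 bases before the start are printed for chr11:52283015-52283264 (*Tcf7*) and chr17:51833291-51833540 (*Satb1*), both on the minus strand and 5′ to 3′, and capitals mark a motif match.
Tcf7 upstream: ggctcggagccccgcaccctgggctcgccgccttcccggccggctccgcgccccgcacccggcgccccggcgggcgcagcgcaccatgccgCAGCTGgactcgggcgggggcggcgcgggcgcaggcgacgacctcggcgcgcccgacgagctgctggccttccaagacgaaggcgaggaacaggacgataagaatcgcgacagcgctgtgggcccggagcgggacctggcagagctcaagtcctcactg
Satb1 upstream: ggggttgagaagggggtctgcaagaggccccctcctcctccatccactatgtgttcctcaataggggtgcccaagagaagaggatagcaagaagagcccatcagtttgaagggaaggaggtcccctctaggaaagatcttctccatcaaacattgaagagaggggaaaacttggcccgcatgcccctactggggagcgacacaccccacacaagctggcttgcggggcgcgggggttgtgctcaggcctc

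The *Tcf7* stretch held an E-box at -159 from the start, while the first *Satb1* window held none of the 5 motifs. The *Tcf7* E-box lies in an open frame that begins with atg at -165 and runs for 71 codons to the end of the window. These letters may be coding sequence of a longer *Tcf7* transcript, so the stretch may not be promoter sequence. A second *Tcf7* window, 419 bases inside the gene, held the FOXO letters at 2 and the KLF letters, on the opposite strand, at -69. The TCF/LEF letters were found near internal starts of *Satb1*, at chr17:51812196-51812202, a single site in 2 overlapping windows. A further *Satb1* window and 1 *Lef1* window held E-boxes, and the AP-1 and Bach letters were in none of the 15. Many windows lay far from the gene start in GENCODE. The only *Bach2* window started 178631 bases inside the gene, *Lef1* window 4 45823 bases inside and *Satb1* windows 3 to 5 6702 to 21236 bases inside. The *Id3* window lay wholly in annotated exons, so the search is not a survey of the promoters of these genes. Among all 32851 start windows, the TCF/LEF letters were in 5.85%, the FOXO letters in 3.65%, the AP-1 and Bach letters in 7.81%, the KLF letters in 3.56% and the E-box in 16.3%. Such matches describe the letters only, and counts per gene do not show which start was used.

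*Bach2* (chromosome 4, 32238804 to 32586108) was at 144, 156 and 188 CPM in WT and at 118, 124 and 116 CPM in KO. The groups did not overlap, and KO had 73.5% of the WT level, but the fold change was under the cutoff and the gene was not called (edgeR, log2 fold change -0.44 with an SE of 0.10, 95% interval -0.68 to -0.21, adjusted p 0.0111). *Bach2* shares 537 exonic bases with the antisense gene Bach2os, so its counts are uncertain. *Prdm1*, which encodes Blimp-1 and is repressed by BACH2 in lymphocytes, was at 27.0, 26.5 and 59.1 CPM in WT and 42.2, 35.5 and 40.9 CPM in KO. WT replicate 3 lay above the KO samples and the other 2 WT samples below them, and *Prdm1* was called neither with all samples (log2 fold change 0.08, adjusted p 0.867) nor without WT replicate 3 (0.56). Per kilobase, *Prdm1* was at 0.315, 0.286 and 0.529 times the level of *Bach2* in WT and at 0.601, 0.4815 and 0.592 times in KO, with overlap (two-sided exact permutation p 0.2, adjusted p 0.333). None of the 8 *Bach2* partners and rivals tested was called, *Bach1* among them (log2 fold change -0.45, adjusted p 0.0473). Without WT replicate 3, *Jun* and *Mafg* were called higher.

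*Klf2* (chromosome 8, 72319033 to 72321656) was at 250.2, 261 and 321 CPM in WT and at 198, 217 and 229 CPM in KO. All KO samples were below all WT samples, at 77.5% of the WT mean, and the gene was not called (edgeR, log2 fold change -0.37 with an SE of 0.11, 95% interval -0.62 to -0.12, adjusted p 0.0302). *S1pr1* (chromosome 3, 115710433 to 115715072) followed with a smaller difference, at 329.5, 346 and 339 CPM in WT and 296, 301 and 310.3 CPM in KO (edgeR, log2 fold change -0.16 with an SE of 0.06, 95% interval -0.30 to -0.02, adjusted p 0.073). The groups did not overlap for *S1pr1* either, but its whole interval lay within a fold change of 1.5.

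Other Krüppel-like factor genes did not share a direction. Of 10 tested, *Klf12* rose and *Klf9* and *Klf3* fell, and the median log2 fold change was -0.09. Without WT replicate 3, *Klf11* was also called higher (log2 fold change 1.56) and the median was 0.08. *Klf3*, a repressor of the family, was at 161, 165 and 249.7 CPM in WT and 116 to 132 CPM in KO (edgeR, log2 fold change -0.61 with an SE of 0.17, adjusted p 0.0229), and it was not called without WT replicate 3 (log2 fold change -0.38). *Klf9* fell from 4.63 to 14.9 CPM in WT to 2.02 to 2.50 CPM in KO, and *Klf12* rose from 5.27 to 7.15 CPM in WT to 12.8 to 14.1 CPM in KO (log2 fold change 1.19). *Klf4* and *Klf6* were not called, and both were highest in WT replicate 3, at 63.5 CPM for *Klf4* against 8.18 and 5.97 CPM in the other WT samples and 5.97 to 7.83 CPM in KO.

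None of the 8 genes of sphingosine-1-phosphate receptors and handling was called, with a median log2 fold change of -0.14. *S1pr4*, a second receptor of T cells, had a log2 fold change of 0.16 (edgeR adjusted p 0.205). *Cd69*, an activation marker whose product pulls S1PR1 from the cell surface, was at 131, 147 and 363 CPM in WT and 250.2, 264 and 252 CPM in KO (log2 fold change 0.26, adjusted p 0.603). Here too the KO samples lay between WT replicate 3 and the other WT samples, and without WT replicate 3 *Cd69* was called higher (log2 fold change 0.88). Per kilobase, *Cd69* was at 0.715 to 1.94 times the level of *S1pr1* in WT and at 1.47 to 1.58 times in KO (two-sided exact permutation p 0.4, adjusted p 0.5). *S1pr3*, *S1pr5* and *Sphk1* were not analysed here.

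*Ccr7* (chromosome 11, 99144196 to 99155077) was at 179.9, 175 and 224 CPM in WT and at 211, 224 and 222 CPM in KO. WT replicate 3 was as high as the KO samples, so the groups overlapped. The gene was not called (edgeR, log2 fold change 0.18 with an SE of 0.10, 95% interval -0.05 to 0.42, adjusted p 0.199), and it stayed under the fold cutoff without WT replicate 3, at 0.30.

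Among 10 other homing and adhesion genes, *Fut7* and *Gpr183* rose and *Itga4* fell, with a median log2 fold change of 0.07. *Fut7*, which makes selectin ligands, went from 9.58 to 12.3 CPM in WT to 38.0 to 41.9 CPM in KO (edgeR, log2 fold change 1.90 with an SE of 0.12, adjusted p 3.69e-05). *Gpr183*, an oxysterol receptor for positioning in lymphoid tissue, rose from 15.9, 16.8 and 30.4 CPM to 44.6 to 48.6 CPM. *Itga4*, the integrin alpha-4 gene, fell from 399 ± 32.1 to 179 ± 5.23 CPM (log2 fold change -1.16, adjusted p 5.36e-05), and it is also one of the study's Treg signature genes from these samples. *Cxcr4* was at 32.9, 32.1 and 177 CPM in WT and 51.8 to 54.7 CPM in KO and was not called, and it was called higher without WT replicate 3.

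*Il7r* (chromosome 15, 9505788 to 9530176) could not be read from all 6 samples. It was at 118, 123 and 563 CPM in WT replicates 1 to 3 and at 194, 210.3 and 201 CPM in KO replicates 1 to 3. The KO samples were close together and lay above WT replicates 1 and 2 and below WT replicate 3. WT replicate 3 held 4.67 times the mean of the other WT samples, which placed *Il7r* 29th by this measure among 9882 genes that averaged 5 CPM or more. With all samples the gene was not called (edgeR, log2 fold change -0.41 with an SE of 0.56, 95% interval -1.71 to 0.89, adjusted p 0.602). Without WT replicate 3 it was called higher in KO (edgeR, log2 fold change 0.74 with an SE of 0.06, adjusted p 9.69e-08), so 1 sample decides its direction. *Jun*, *Klf4*, *Cd69* and *Cxcr4* were also far above the other WT samples in WT replicate 3, *Jun* at 567 CPM against 122 and 118 CPM. *Jun* and *Cxcr4* were chosen here after their values were seen, and the part of these genes in the *Il7r* value was not tested.

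The rest of the IL-7 receptor pathway showed little difference. None of 10 genes tested was called, and the median log2 fold change was -0.10. *Il2rg*, the common gamma chain that pairs with IL-7 receptor alpha, was at 523, 536 and 553 CPM in WT and 598, 644 and 625 CPM in KO (edgeR, log2 fold change 0.21 with an SE of 0.06, adjusted p 0.0323). Per kilobase, *Il7r* was at 0.107, 0.109 and 0.481 times the level of *Il2rg* in WT and at 0.153, 0.154 and 0.152 times in KO (two-sided exact permutation p 1). *Bcl2*, a survival gene downstream of IL-7, was at 334, 343 and 419.8 CPM in WT and 262 to 272.5 CPM in KO and was not called (log2 fold change -0.45, adjusted p 0.00829).

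**Figure D3:**
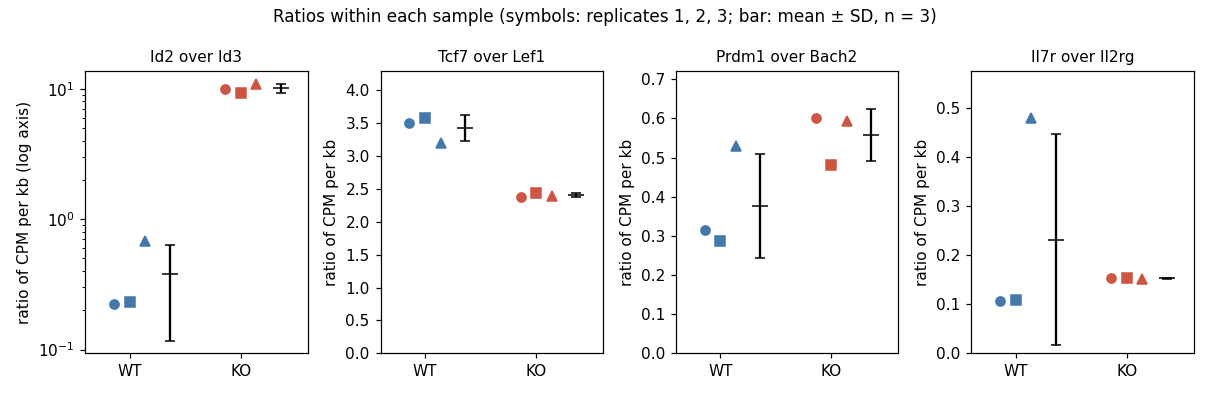
Ratios of CPM per kilobase within each sample (vertical axes, logarithmic for *Id2* over *Id3* and from 0 for the others), with symbols for replicates and black bars for the mean ± SD of 3 samples. *Id2* over *Id3* goes from a mean of 0.377 in WT to 10.1 in KO, and *Il7r* over *Il2rg* is set apart by WT replicate 3.

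Levels per kilobase of the longest coding transcript gave an order among the 9 genes. In WT, *Tcf7* was highest at 212 ± 12.4 CPM per kilobase (SD, n = 3), followed by *Klf2* (150.1 ± 20.6), *S1pr1* (111 ± 2.64), *Ccr7* (97.6 ± 13.8), *Il7r* (75.8 ± 72.2), *Lef1* (61.8 ± 0.44), *Id3* (57.4 ± 14.4), *Satb1* (47.0 ± 11.3) and *Bach2* (18.3 ± 2.55). The ranges of *S1pr1* and *Ccr7* overlapped, as did those of *Lef1* and *Id3* and of *Id3* and *Satb1*, and the range of *Il7r* took in several neighbors. The place of *Il7r* in WT rests on replicate 3, at 159 CPM per kilobase, since replicates 1 and 2 were at 33.3 and 34.8, below all 3 values of *Satb1*. In KO, *Tcf7* was again highest at 132 ± 4.87, and *Satb1* (117 ± 3.16), *Klf2* (116 ± 8.49) and *Ccr7* (111 ± 3.59) came next. The KO range of *Klf2* took in that of *Satb1* and overlapped that of *Ccr7*. *Id3* became the lowest of the 9, at 10.9 ± 1.122, below *Bach2* at 13.5 ± 0.47. Between *Ccr7* and *Bach2* stood *S1pr1* (99.3 ± 2.42), *Il7r* (57.0 ± 2.28) and *Lef1* (54.7 ± 1.73), of which *Il7r* and *Lef1* overlapped. The spread within KO was small, with coefficients of variation from 2.43% for *S1pr1* to 10.3% for *Id3*, whereas within WT it ran from 0.710% for *Lef1* to 95.3% for *Il7r*.

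WT replicate 3 was not shifted toward KO in all members. Relative to the mean of WT replicates 1 and 2, it was at 0.623 times for *Id3* and 1.49 times for *Satb1*, both in the direction of the KO samples. For *Ccr7* and *Il7r* it was at 1.26 and 4.67 times, above the KO means, which were at 1.24 and 1.67 times the same level. For *Bach2* and *Klf2* it was at 1.25 and 1.26 times, away from KO. *Lef1* and *S1pr1* were at 0.999 and 1.004 times, so they hardly separated this sample from the other WT samples. *Tcf7* was at 0.902 times, a small shift in the direction of the KO samples, whose mean was at 0.601 times the same level.

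The genes whose pattern over the 6 samples was most like that of a member are given as a description, since the gap between genotypes dominates such values. Among 9882 genes, *Tcf7* was most like *Tox*, a transcription factor gene of T cell development and exhaustion (Pearson r 0.9996), and *Id3* was most like *Cyth3* (0.9997). *Satb1* was most like *Lilr4b* (0.9997) and *Bhlhe40* (0.9992), the latter a regulator of cytokine production in T cells. *Lilr4b* was low in WT, at 0.489, 0.426 and 3.79 CPM, and reached the mean of 5 CPM only through KO, at 56.4 to 60.9 CPM. Its log2 fold change was 5.23, against 1.31 for *Satb1*, so a high r does not mean a like size of difference. *Il7r* was most like *Arl5a* (0.9990), which was at 152, 157 and 353 CPM in WT and 198 to 202 CPM in KO. *Bach2* was most like *Hbp1*, a repressor of cell cycle entry (0.9988), and *Lef1*, *Klf2*, *S1pr1* and *Ccr7* were most like *Ocrl*, *Ube2d2a*, *Mettl23* and *Alkbh5*, with r from 0.994 to 0.998.

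Other genes of T cell quiescence were compared next. All 15 tested had negative log2 fold changes, with a median of -0.49, and 6 of them fell, against 12.5% called lower among all genes. *Foxp1* fell from 257 ± 3.89 to 148 ± 6.69 CPM (edgeR, log2 fold change -0.80 with an SE of 0.06, adjusted p 0.000123), and it is a repressor that keeps naive T cells quiescent. *Foxo1*, which activates *Klf2* and *Il7r* in T cells, and its relative *Foxo3* fell at log2 fold changes of -0.68 and -0.70, and both are among the study's Treg signature genes from these samples. The antiproliferative genes *Tob1*, *Tob2* and *Btg2* were called lower with all samples but not without WT replicate 3, where *Tob2* was at 207 CPM against 82.5 and 82.9 CPM in the other WT samples. Without that sample, 3 of 15 were called lower, the median was -0.26 and *Txnip* had a positive value (log2 fold change 0.04).

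Further markers of resting T cells fell more. Of 6 tested, 5 fell and none rose, with a median log2 fold change of -0.92. *Il6ra*, the IL-6 receptor alpha chain and one of the study's signature genes, fell from 402 ± 21.5 to 148 ± 6.65 CPM (edgeR, log2 fold change -1.44 with an SE of 0.07, adjusted p 1.71e-05). *Igfbp4* fell from 232 ± 21.1 to 114 ± 4.55 CPM (log2 fold change -1.02), *Nsg2* from 314 ± 40.8 to 177.5 ± 8.53 CPM (-0.82) and *Dapl1* from 6.85 ± 3.18 to 2.07 ± 0.26 CPM (-1.72). *Trib2* was the marker not called, at 262, 256 and 393 CPM in WT and 393 to 415 CPM in KO, and it was called higher without WT replicate 3.

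**Figure D4:**
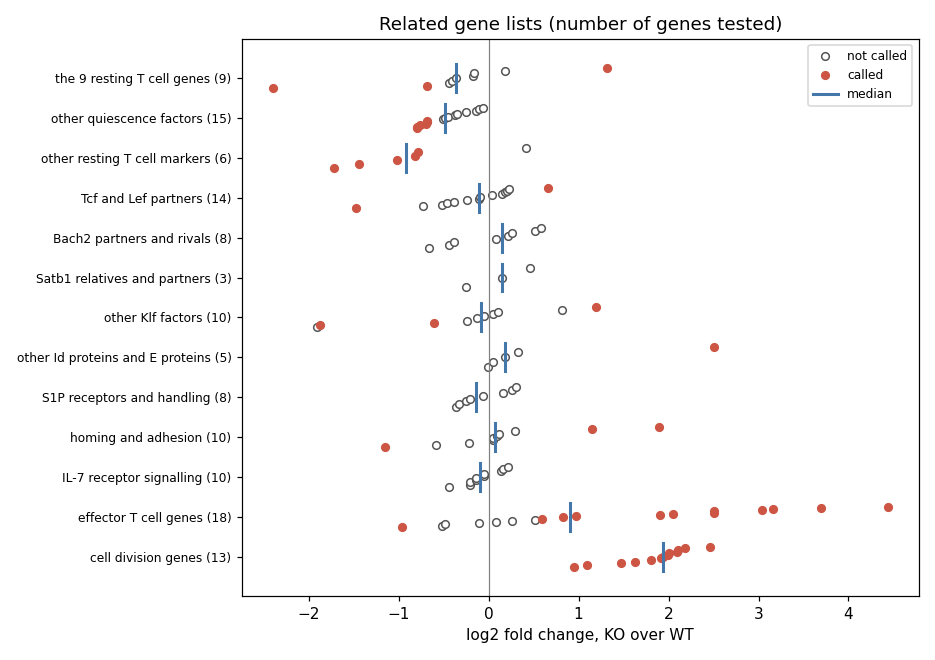
Log2 fold change of KO over WT (horizontal axis) for the genes of each list (vertical axis, number tested in brackets), with filled points for genes called, open points for genes not called and a blue line at each median. The 9 resting T cell genes spread from -2.40 to 1.31, whereas, with all 6 samples, the other quiescence factors all lie below 0 and the cell division genes all lie above it.

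Effector and cell division genes are set beside these values, in lists chosen with earlier results of these data known. Among all genes, 11.9% were called higher and 12.5% lower. Of 18 effector T cell genes, 11 rose and 1 fell, with a median log2 fold change of 0.90. Negative values, 4 in all, included *Irf4* (-0.52) and *Ccl5* (-0.48), neither of them called. *Gzmb*, which encodes granzyme B, rose from 12.1, 12.2 and 36.8 CPM to 437, 446 and 438 CPM (edgeR, log2 fold change 4.44 with an SE of 0.45, adjusted p 0.000316). *Tbx21*, *Cxcr6* and *Zeb2* rose at log2 fold changes of 3.69, 3.16 and 3.04, and *Klrg1* fell at -0.96. *Cd44*, the usual protein marker of activated T cells, was not called at the RNA level (log2 fold change -0.11). All 13 cell division genes rose, with a median of 1.94. Their summed level was 705.5 to 1367 CPM in WT and 3927 to 4068 CPM in KO, with the lowest value in WT replicate 3. The part of cell division or activation in the values of the 9 genes was not tested.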

How the data were processed

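The methods of the study name SOAPnuke for read filtering, HISAT2 for alignment to mm10 (1 alignment kept for each read) and StringTie for quantification. The authors deposited whole-number counts per gene for 6 samples. The annotation and use of strand in counting are not given in the sources used here. The smallest sum of a gene over all samples was 60, so low genes had been removed.

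With R 4.3.3 and edgeR 4.0.16, 13594 of 13709 genes passed filterByExpr (minimum count 10) and were tested with TMM scaling and the quasi-likelihood F-test, KO against WT, without covariates. Adjusted p is Benjamini-Hochberg over all genes tested. SE is the log2 fold change divided by the square root of F. Lengths and positions came from GENCODE M21 (mm10) and start windows from RefSeq. At these depths 3 counts equal 0.0747 to 0.0913 CPM, which covers counting error only.

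The members and lists were chosen with earlier results of these data known. Named genes are the members, the largest called genes of each list (at most 4), fixed relatives of members, and the most alike genes by Pearson correlation of log2(CPM + 0.5). Genes named outside this rule were chosen after their values were seen. The 5 ratios per kilobase were added after the data were seen. A gene of the homing list is not reported here. Scripts were tested on simulated data. Alternatives included DESeq2 1.42.0 and limma 3.58.1.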

Additional observations from a re-analysis of the deposited data

How the results depend on the processing

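*Id3* and *Satb1* were called, in the same direction, under each of 16 alternatives, with log2 fold changes of -2.60 to -2.27 and 1.21 to 1.52. *Tcf7* was called under 15 of them (-0.74 to -0.66), and with glmTreat against a fold change of 1.5 its value of -0.69 was not called (adjusted p 0.199). *Lef1*, *S1pr1* and *Ccr7* were called under none. *Bach2* (-0.44, adjusted p 0.0111) and *Klf2* (-0.37, adjusted p 0.0302) were called only when the fold cutoff was dropped and adjusted p had to be below 0.05, which gave 5 of the 9 genes and 5244 genes in all. glmTreat gave 2 of the 9 and 1686 genes in all. These changes follow from how the cutoffs are built. *Klf2* stayed negative under all 16 alternatives, from -0.44 to -0.23, with varying adjusted p. It was at -0.23 with offsets for GC content and length (edgeR adjusted p 0.119) and at -0.31 without KO replicate 1 (edgeR adjusted p 0.119). Without WT replicate 3 it was at -0.25 (edgeR adjusted p 0.00389). *Il7r* reversed to 0.53 with sample quality weights in limma (adjusted p 0.0627, with a weight of 0.199 for WT replicate 3), to 0.74 without WT replicate 3 (adjusted p 9.69e-08) and to 0.030 with the replicate block (adjusted p 0.968), and the cause of the last was not tested. Over the fits that left out 1 sample each, *Il7r* ranged from -0.77 to 0.74, the number of the 9 genes called from 3 to 4, and calls over all genes from 2867 to 3667. Over all these alternatives the all-gene median log2 fold change lay between -0.07 and -0.01.

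The replicate block left 3 of the 9 genes called and 3190 genes in all, 3100 of them shared with the fit without it. Same-numbered WT and KO samples had correlations of 0.0576, 0.0328 and -0.00419 in their deviations from the genotype means. WT replicates 1 and 2 correlated best with the same-numbered KO samples, and WT replicate 3 with KO replicate 2. As these correlations were all small, the samples were taken to share only a number, which the values do not settle. The counts of related lists without WT replicate 3 were added after seeing the data. Each of the 9 genes had at least 450 counts in every sample.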
